A study of Mus musculus with 31 samples.

Results

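Tumors of K5ΔNβcat mice were compared with small hyperplasias, the early lesions of the same transgenic line. All arrays titled tumor (11) and all titled small hyperplasia (5) entered the comparison, 16 of the 31 samples of the series. Both groups carry the K5ΔNβcat transgene, in which the keratin 5 promoter drives a stabilized, N-terminally truncated β-catenin in the basal layer of the mammary epithelium. The strain label of both groups is C57BL6, whereas the methods of the study give a mixed background that includes C57BL6. No further treatment is labelled, and the age of the mice is not given in the labels. Each sample was total RNA of whole lesion tissue on 1 Affymetrix mouse array. The other arrays hold large hyperplasias (5) and control mammary tissue (4), which shared the fit, and sorted basal cells (6), which did not. The labels do not say that the samples came from separate animals, so p-values measure only the spread between these samples.

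β-catenin is the effector of canonical Wnt signaling. Without a Wnt signal it is phosphorylated at its N terminus and degraded, and a form that lacks this stretch accumulates and acts with LEF and TCF factors on target genes. The mammary duct has an inner luminal layer, which carries hormone receptors and makes milk, and an outer basal layer, which expresses keratins 5 and 14 and p63 and contracts. In skin, activated β-catenin is known to drive hair follicle fate, while epidermal cells that leave the basal layer keratinize, a path called squamous differentiation when it is taken in the mammary gland.

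Signals are linear MAS5 intensities, and each array had been scaled by the authors to a mean of 100. Array medians were 29.06 to 29.58 in tumors 1 to 3, 23.9 to 26.7 in tumors 4 to 11 and 28.3 to 29.97 in small hyperplasias. A signal of 30 or more, the level used as background, was reached by 49.4% to 49.8% of probe sets in tumors 1 to 3, 46.2% to 48% in tumors 4 to 11 and 49% to 50% in small hyperplasias. Differences are tumor minus small hyperplasia on log2(signal + 16), with the standard error of limma, and they understate the change of dim genes. Where every array of one group lay below 30, the fold is a lower bound against 30. Tumors 1, 2 and 3 stood apart from tumors 4 to 11 in gene lists too: relative to the mean of the small hyperplasias, the mean log2 level of milk protein genes was 3.74 to 5.06 in them and 0.30 to 2.53 in tumors 4 to 11, and that of adipocyte genes was -3.13 to -2.75 in them and -4.67 to -3.74 in tumors 4 to 11. Small hyperplasia 2 had the lowest mitosis and the highest endothelial signals of its group. Counts and medians without tumors 1 to 3 are given where they moved.

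Most of the detected genes passed the test. Of 11725 genes, each represented by its brightest probe set, 3015 rose (25.7%) and 3761 fell (32.1%) in tumors, at an adjusted p under 0.05 over all 23531 probe sets tested. Of these 54.0% were called, 24.4% higher and 29.6% lower. In 1304 genes (11.1%) every tumor lay above every small hyperplasia and in 1726 (14.7%) every tumor lay below. The median difference of all genes was -0.05. The counts of each gene list below are to be read against these shares.

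**Figure D1:**
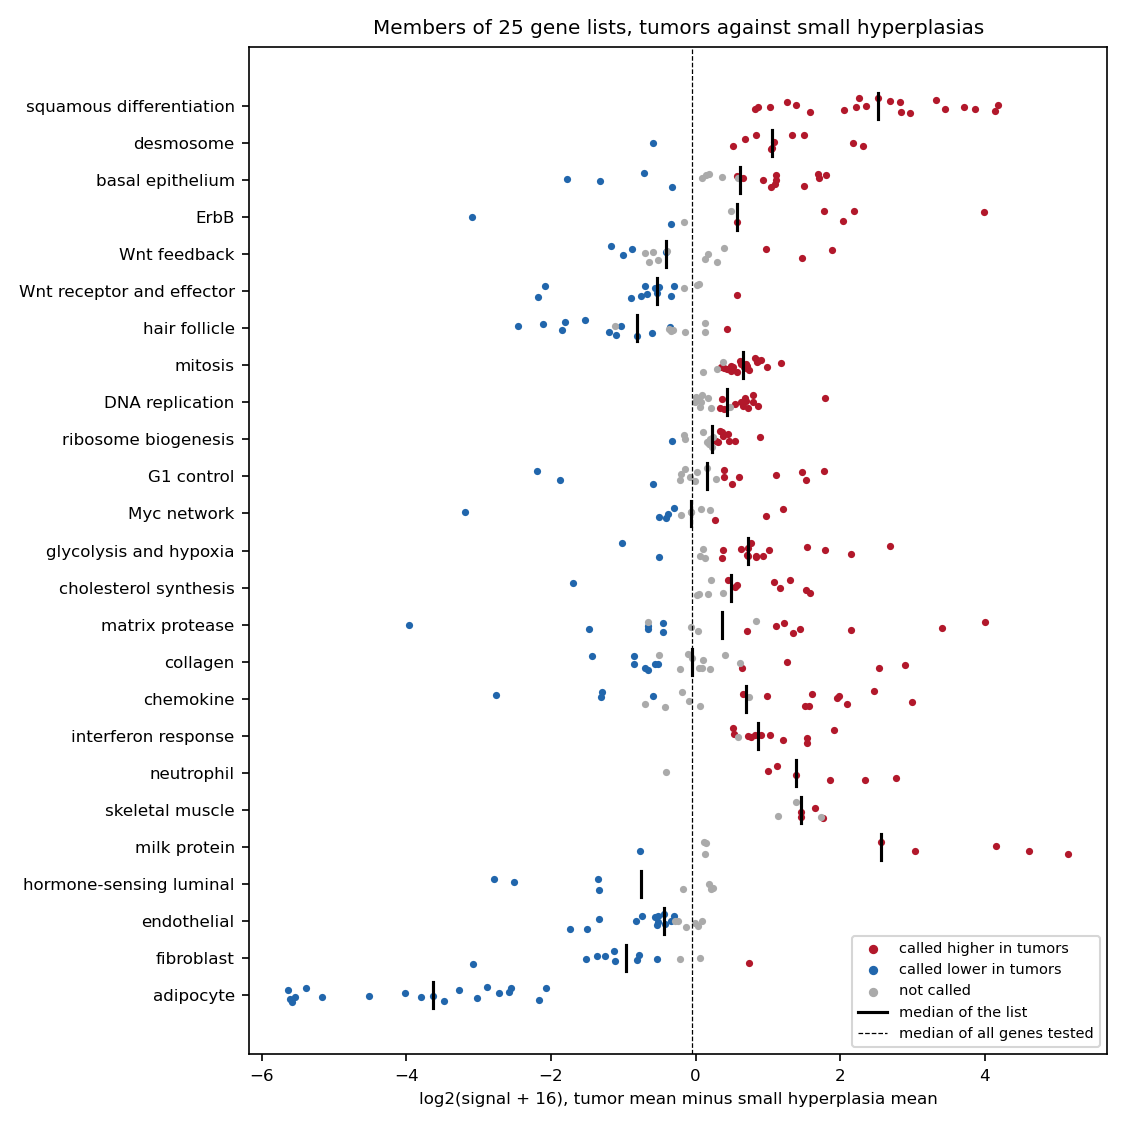
Log2 difference of each tested member of 25 gene lists, tumors minus small hyperplasias (x axis); points are genes, black bars the median of a list, and the dashed line the median of all genes (-0.05). Squamous differentiation lies fully to the right (median 2.53) and adipocyte genes fully to the left (median -3.62).

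Genes of squamous differentiation rose together in tumors. All 21 tested genes of this list rose, with a median difference of 2.53, and in 17 of them the groups did not overlap. Krt1, the type II keratin of suprabasal epidermis, ranged 1030.3 to 5262 (median 3403) in tumors, against 129, 92.1, 567, 92.5 and 141 in small hyperplasias (log2 difference 4.19 ± 0.34, adjusted p = 2.7e-10). Tumor 11 was the lowest tumor and small hyperplasia 3 the highest of its group, and the groups did not overlap. Loricrin (Lor), the main protein of the cornified envelope, ranged 117 to 2603 (median 963) in tumors, against 36.7, 30.5, 62.6, 35 and 58.2 in small hyperplasias (log2 difference 3.86 ± 0.44, adjusted p = 6.9e-08). Filaggrin (Flg), which bundles keratin filaments in the outer epidermis, ranged 164 to 2697 (median 1096) in tumors, against 78.9, 32, 122, 32.8 and 57.6 in small hyperplasias (log2 difference 3.72 ± 0.48, adjusted p = 5.4e-07). Both genes were lowest in tumor 11, which still exceeded each small hyperplasia. Sprr1b, a small proline-rich envelope protein, ranged 1451 to 3694 (median 1953) in tumors, against 92.8, 11.1, 425, 107 and 209 in small hyperplasias (log2 difference 4.14 ± 0.39, adjusted p = 2.7e-09). Involucrin (Ivl, 3.33), another envelope protein, and the stress keratins Krt6b (3.45) and Krt16 (2.83) rose as well, without overlap. Krt10, the partner of Krt1, rose by a log2 difference of 2.96 and did overlap, since tumor 11 (388) lay below small hyperplasia 3 (954). The smallest rises were those of periplakin (Ppl, 0.87) and envoplakin (Evpl, 0.82).

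Genes of the stefin A cluster, which encode cysteine protease inhibitors of keratinocytes and neutrophils, were among the largest rises of all. Csta1 ranged 699 to 3009.9 (median 1456) in tumors, against 22.8, 59.7, 67.9, 27 and 38.6 in small hyperplasias (log2 difference 4.75 ± 0.28, adjusted p = 9.0e-13). Stfa3 ranged 2613 to 5134 (median 4268) in tumors, against 138, 207, 302, 152 and 284 in small hyperplasias (log2 difference 4.14 ± 0.17, adjusted p = 2.3e-15). Stfa2l1 rose by 4.50, again without overlap. These copies are alike in sequence, so that probe sets may share their transcripts and the members are not independent. Desmosome genes, whose products join epithelial cells, rose in 10 of 11 tested members (median 1.05). The desmosomal cadherins Dsc1 (895 to 3135 (median 2042) in tumors, against 374, 168, 385, 288 and 547 in small hyperplasias, log2 difference 2.32 ± 0.29, adjusted p = 2.5e-07) and Dsc2 (2.17) rose most, followed by Dsg1a (1.498) and Dsc3 (1.34). Plakophilin 2 (Pkp2), the plakophilin of simple epithelia and heart, was the single member that fell (log2 difference -0.58 ± 0.18, adjusted p = 0.00731).

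Ligands of the EGF receptor family rose together. Of 9 tested ErbB genes 5 rose and 2 fell (median 0.57), and each of the 5 that rose encodes a ligand. Epigen (Epgn), an EGF receptor ligand of skin, ranged 305 to 1550.3 (median 538) in tumors, against 29.9, 10.2, 20.9, 27 and 26.8 in small hyperplasias, all below background, so that it was at least 19.7-fold higher (log2 difference 3.99 ± 0.26, adjusted p = 4.6e-12). Heparin-binding EGF (Hbegf) ranged 168 to 769.6 (median 358) in tumors, against 54.8, 55.3, 97.5, 53.7 and 67.8 in small hyperplasias (log2 difference 2.20 ± 0.31, adjusted p = 2.2e-06). Tgfa, which encodes TGFα, ranged 211 to 667 (median 395) in tumors, against 83.5, 73.2, 96.8, 72.4 and 109.6 in small hyperplasias (log2 difference 2.03 ± 0.19, adjusted p = 1.7e-09). In all 3 the lowest tumor exceeded the highest small hyperplasia. Epiregulin (Ereg) rose by 1.78 and betacellulin (Btc) by 0.57. Nrg4, an ErbB4 ligand known as a secreted factor of fat, went the other way: it ranged 7.58 to 25.3 (median 10.5) in tumors, all below background, against 227, 227, 219, 287 and 133 in small hyperplasias, and was at least 7.08-fold lower (log2 difference -3.09 ± 0.15, adjusted p = 5.7e-14). The summed signal of 19 adipocyte genes ran from 2716 to 13049 in tumors, against 50778 to 62226 in small hyperplasias, and its part in this fall was not tested. Of the receptors, Erbb2 did not pass the test (log2 difference -0.16 ± 0.12, adjusted p = 0.26), and Erbb3 did (log2 difference -0.34 ± 0.13, adjusted p = 0.0365), although its adjusted p was 0.107 without small hyperplasia 5, 0.103 without small hyperplasia 1, and 0.0518 to 0.0590 without tumor 4, 5, 6, 8 or 10. Egfr, counted with the basal genes, differed by -0.32 (adjusted p = 0.0216), with an adjusted p of 0.0749 without small hyperplasia 1 and 0.0824 without small hyperplasia 5.

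**Figure D2:**
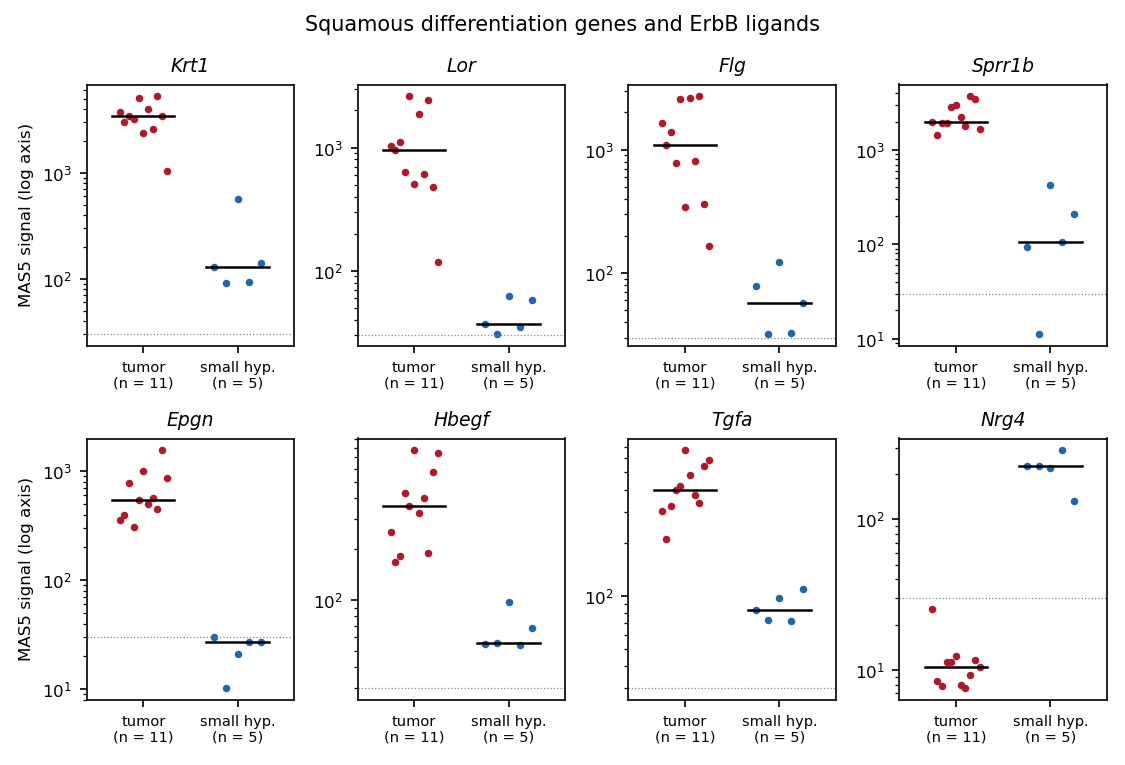
MAS5 signals (log axis) of 4 squamous differentiation genes and 4 ErbB ligands in 11 tumors (red, left) and 5 small hyperplasias (blue, right); each point is 1 array, bars are medians, and the dotted line is the background level of 30. The groups are apart in all 8 genes, tumors above in 7 and below in Nrg4.

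Basal keratins rose, whereas the contractile genes of the basal cell moved both ways. Of 20 tested basal genes 11 rose and 4 fell (median 0.62). Krt14 ranged 3599.6 to 5539 (median 4288) in tumors, against 1883, 1633, 2196, 1933 and 2837 in small hyperplasias (log2 difference 1.10 ± 0.13, adjusted p = 1.3e-07), and its partner Krt5 ranged 1810.3 to 3678 (median 2841) in tumors, against 1092, 1203, 1472, 1139.6 and 1379 in small hyperplasias (log2 difference 1.11 ± 0.14, adjusted p = 3.9e-07). Neither keratin overlapped between the groups, and neither did Krt17 (1.69), a keratin of hair follicles and wounded epidermis. Trp63, which encodes the basal transcription factor p63, ranged 420.2 to 1210.2 (median 787) in tumors, against 388, 390.1, 349, 269 and 379.6 in small hyperplasias (log2 difference 1.12 ± 0.17, adjusted p = 7.8e-06). The cell cycle checkpoint gene Sfn (1.80), which encodes 14-3-3σ, and the transcription factor gene Bnc1 (1.71) rose further. Nrg1, a neuregulin and ErbB ligand counted with the basal genes, rose by 1.501 (at least 1.57-fold). Those that fell were Id4 (-1.77), an inhibitor of helix-loop-helix factors, the homeobox gene Irx4 (-1.32), Dst (-0.72) and Egfr. The call of Dst rests on its brightest probe set, since 2 of its 4 probe sets rose and 2 fell. Of 15 contractile genes 5 rose and 6 fell (median -0.07, and 0.12 without tumors 1 to 3). The smooth muscle myosin gene Myh11 ranged 24.8 to 72.3 (median 42.7) in tumors, against 184, 289.7, 204, 212 and 181 in small hyperplasias (log2 difference -1.95 ± 0.19, adjusted p = 3.6e-09). The oxytocin receptor gene Oxtr (-2.76), through which milk ejection is triggered, and Synpo2 (-2.03, at least 3.63-fold lower) also fell without overlap, and Cnn1 fell by 0.87. The tropomyosins Tpm2 (0.92) and Tpm1 (0.73), Csrp1 (0.84) and the smooth muscle actin Actg2 (1.604) rose. Acta2, the marker actin of myoepithelium, ranged 1473 to 3018 (median 2312) in tumors, against 2046, 2085, 2102, 1959.7 and 2046 in small hyperplasias, and did not pass the test (log2 difference 0.06 ± 0.15, adjusted p = 0.755).

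Genes of the hormone-sensing luminal cell fell, whereas luminal keratins were mixed. Of 8 tested hormone-sensing genes 4 fell and none rose at the threshold (median -0.75, and -0.48 without small hyperplasia 5). Foxa1, the pioneer factor of estrogen receptor binding, ranged 22.5 to 228 (median 48.7) in tumors, against 488, 557, 423, 779 and 524 in small hyperplasias, without overlap (log2 difference -2.79 ± 0.38, adjusted p = 1.1e-06). Pgr, the progesterone receptor, ranged 6.13 to 179 (median 24.8) in tumors, against 494, 178, 236, 319.9 and 479 in small hyperplasias (log2 difference -2.50 ± 0.42, adjusted p = 2.4e-05), where tumor 8 was as high as small hyperplasia 2. Esr1, the estrogen receptor α, ranged 89.1 to 381 (median 107) in tumors, against 316, 354, 362, 425 and 370.5 in small hyperplasias (log2 difference -1.34 ± 0.20, adjusted p = 5.7e-06), and tumor 1 alone (381) lay within the range of the small hyperplasias. Of the other 16 luminal genes 4 rose and 6 fell (median -0.42, and -0.63 without tumors 1 to 3). Krt19 (-1.70), the tight junction gene Cldn8 (-1.36), Prom1 (-1.32) and Kit (-1.28) fell most. Cldn8 had an adjusted p of 0.0649 without small hyperplasia 1 and 0.0514 without small hyperplasia 4. Cldn4 (0.98), Aldh1a3 (0.75), Ehf (0.68) and Cd14 (0.66) rose. Krt8 (log2 difference -0.53 ± 0.26, adjusted p = 0.0875) and Krt18 (log2 difference -0.49 ± 0.26, adjusted p = 0.117) did not pass the test in all arrays; without tumor 8 their adjusted p were 0.0457 and 0.04998, and without small hyperplasia 2 that of Krt8 was 0.0365.

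Milk protein genes were high in tumors 1, 2 and 3. Of 9 tested genes 5 rose and 1 fell, with a median of 2.56, and of 0.78 without these tumors. Csn1s1, the αS1-casein, ranged 191 to 6886 (median 1337) in tumors, against 19.1, 11.5, 22.9, 30.2 and 23.6 in small hyperplasias (log2 difference 5.15 ± 0.58, adjusted p = 6.4e-08). Its signals in tumors 1 to 3 were 5079, 3753 and 6886, while tumors 4 to 11 ran from 191 to 2352. Csn2, the β-casein, ranged 172 to 6004 (median 1707) in tumors, against 96.7, 22, 84.8, 63.7 and 50.3 in small hyperplasias (log2 difference 4.15 ± 0.63, adjusted p = 5.4e-06), so that both caseins were above each small hyperplasia in all 11 tumors, and without tumors 1 to 3 their differences were 4.42 and 3.39. Csn1s2a (4.61, at least 10.8-fold) and Glycam1 (3.04), a mucin-like milk protein, overlapped between the groups. Mfge8, of the milk fat globule membrane, fell by 0.77.

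Receptors and effectors of Wnt signaling fell, and secreted inhibitors of the Dkk family rose. Of 15 receptor and effector genes 11 fell and 1 rose (median -0.53); without small hyperplasia 5, 7 fell. Lgr5, an R-spondin receptor, Wnt target and stem cell marker of gut and hair follicle, ranged 21 to 263 (median 63.3) in tumors, against 307, 435, 359, 291 and 426 in small hyperplasias (log2 difference -2.08 ± 0.33, adjusted p = 1.1e-05). Lgr6, a related receptor of skin stem cells, ranged 18.9 to 257 (median 62.6) in tumors, against 360.1, 333, 341, 311 and 507 in small hyperplasias (log2 difference -2.18 ± 0.37, adjusted p = 2.3e-05). Neither gene overlapped between the groups, the 3 highest tumors were tumors 1, 2 and 3, and without them the differences were -2.52 for Lgr5 and -2.67 for Lgr6. Lgr4, the third of these receptors, ranged 143 to 797 (median 187) in tumors, against 611, 561, 431, 488 and 404 in small hyperplasias (log2 difference -0.89 ± 0.28, adjusted p = 0.0101). The DNA-binding partners of β-catenin Lef1 (-0.70), Tcf7l1 (-0.56) and Tcf7l2 (-0.75) and the Wnt target factor Sp5 (-0.67) were called lower, with Lef1 at 7.13 to 64.2 (median 16.7) in tumors, against 27.7 to 87.9 (median 38.4) in small hyperplasias. The calls of Lef1 (adjusted p = 0.069) and Sp5 (adjusted p = 0.0599) were lost without small hyperplasia 5, and that of Tcf7l2 without small hyperplasia 2 (adjusted p = 0.0676) or 5 (adjusted p = 0.0798). With signals floored at 30, those of Lef1 (-0.35, adjusted p = 0.142) and Sp5 (-0.32, adjusted p = 0.0909) were lost as well. A replicate block lost the calls of Lef1 (adjusted p = 0.26), Sp5 (adjusted p = 0.243) and Tcf7l1 (adjusted p = 0.135). The receptor gene Fzd6 was the one that rose (0.58). In its brightest probe set Ctnnb1 itself ranged 3370.5 to 4369 (median 3571) in tumors, against 3014 to 3906 (median 3594) in small hyperplasias. There it did not pass the test (log2 difference 0.05 ± 0.07, adjusted p = 0.569). However, 2 of its 3 probe sets were called higher, and the mean of its probe sets was higher by 0.79 (adjusted p = 5.3e-08). Whether these probes read the transgene is not given.

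Feedback inhibitors of the pathway did not move as 1 group. Of 16 tested genes 3 rose and 4 fell (median -0.40); the number that fell was 7 without tumor 2 and 9 without tumors 1 to 3. Dkk1, which blocks the LRP co-receptors, ranged 26.6 to 544 (median 182) in tumors, against 26.9, 10.8, 104, 53.8 and 32.5 in small hyperplasias (log2 difference 1.88 ± 0.41, adjusted p = 0.0004), and 9 tumors exceeded the highest small hyperplasia. Dkk3 ranged 208 to 573 (median 357) in tumors, against 135, 119.5, 106, 130.4 and 95.2 in small hyperplasias, without overlap (log2 difference 1.47 ± 0.19, adjusted p = 7.1e-07). Dkk2 was called higher (log2 difference 0.98 ± 0.36, adjusted p = 0.0234), but not without small hyperplasia 2 (adjusted p = 0.0548) or 4 (adjusted p = 0.0612), nor without tumors 1 to 3 (adjusted p = 0.0715). Notum, a Wnt deacylase that is itself a Wnt target, ranged 30.03 to 146 (median 57.8) in tumors, against 207, 111, 132, 129 and 199 in small hyperplasias (log2 difference -1.17 ± 0.23, adjusted p = 0.00014). Axin2, a scaffold of the β-catenin destruction complex and a common reporter of the pathway, ranged 80.9 to 231 (median 131) in tumors, against 151 to 283 (median 172) in small hyperplasias (log2 difference -0.41 ± 0.17, adjusted p = 0.0491). It is 1 of the 4 that fell, and its call was lost under each other processing tried, without small hyperplasia 1, 3 or 5 and without tumor 3, 4, 5, 6, 7, 9, 10 or 11 (adjusted p = 0.0528 to 0.214 without 1 array). Sfrp4 (-1.002) fell, and so did Nkd2 (-0.87), in 1 of its 4 probe sets.

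Hair follicle genes fell, with tumors 1, 2 and 3 above the other tumors. Of 19 tested genes 11 fell and 1 rose (median -0.81), and without tumors 1 to 3, 13 fell (median -1.04). Relative to the small hyperplasias, the mean log2 level of the list was 0.10 to 0.69 in tumors 1 to 3 and -1.84 to -0.82 in tumors 4 to 11. Krt71, a keratin of the inner root sheath, ranged 12.1 to 1213 (median 71.3) in tumors, against 591, 536, 615, 748 and 686 in small hyperplasias (log2 difference -2.45 ± 0.65, adjusted p = 0.00255). Tumors 1, 2 and 3, at 478, 651 and 1213, were the highest, near or above the small hyperplasias, and tumors 4 to 11 ran from 12.1 to 104. Krt27 (-2.11) and Krt25 (-1.85), keratins of the same sheath, had the same 3 tumors on top. Krt35, a hair shaft keratin, was called lower (log2 difference -1.81 ± 0.66, adjusted p = 0.0227), but not without small hyperplasia 5, whose signal was 541 (adjusted p = 0.0901). Sonic hedgehog (Shh, log2 difference -1.20 ± 0.31, adjusted p = 0.00195), which drives follicle growth, ranged 13.8 to 218 (median 47) in tumors, against 88.6 to 172 (median 137) in small hyperplasias. Its receptor and target gene Ptch1 (-1.53), its target Gli1 (-1.10) and the hair keratin regulator Hoxc13 (-1.03) were called lower too. With signals floored at 30 the difference of Hoxc13 was -0.198 and its call was lost (adjusted p = 0.285). A replicate block lost the calls of Hoxc13 (adjusted p = 0.104) and Shh (adjusted p = 0.117). Foxn1, a transcription factor of hair and thymus, was the member that rose (log2 difference 0.44 ± 0.13, adjusted p = 0.00624); all its small hyperplasias lay below background, at 25.8, 23.9, 21.2, 22.5 and 18.8, with tumors at 22.1 to 56.6 (median 33.5), a rise of at least 1.19-fold.

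**Figure D3:**
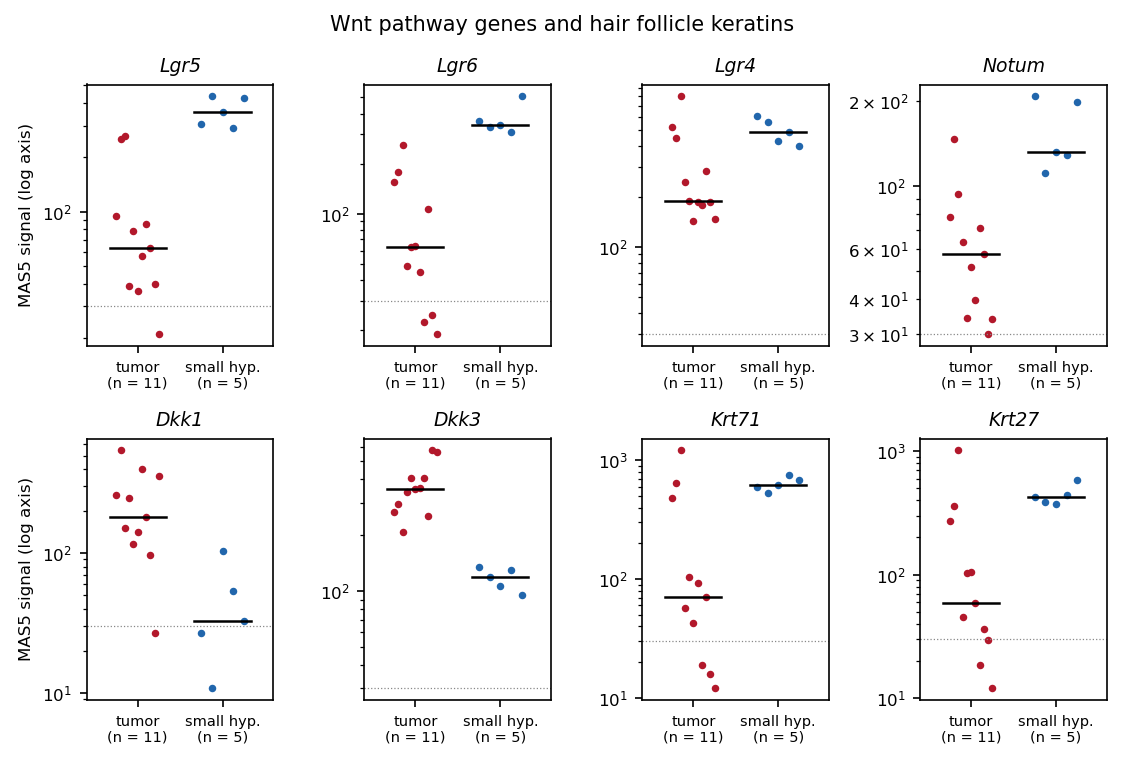
MAS5 signals (log axis) of 6 Wnt pathway genes and 2 hair follicle keratins in 11 tumors (red, left) and 5 small hyperplasias (blue, right); each point is 1 array in the order of its number, bars are medians, and the dotted line is the background level of 30. Lgr5 and Lgr6 do not overlap between the groups, and for Krt71 and Krt27 the first 3 tumors are the highest tumors.

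Genes of mitosis rose in tumors. Of 24 tested genes 21 rose and none fell at the threshold (median 0.65), and in 12 the groups did not overlap. Cdc20, an activator of the anaphase-promoting complex, ranged 448 to 747 (median 531) in tumors, against 243, 170.0, 279, 288 and 223 in small hyperplasias (log2 difference 1.18 ± 0.15, adjusted p = 5.8e-07). Cenpe, a kinetochore motor, ranged 60.2 to 82 (median 73.5) in tumors, against 42.1, 17.4, 30.4, 32.9 and 38.6 in small hyperplasias (log2 difference 0.91 ± 0.15, adjusted p = 1.4e-05). Birc5, which encodes survivin, ranged 138 to 259 (median 200.3) in tumors, against 93.9, 53.2, 106, 123 and 141 in small hyperplasias (log2 difference 0.86 ± 0.18, adjusted p = 0.00033), where only small hyperplasia 5 exceeded the lowest tumor. Incenp, of the same chromosomal passenger complex, rose by 0.99. In these genes small hyperplasia 2 was the lowest of its group. Mki67, the proliferation marker Ki67, had the smaller difference of 0.43 (383 to 492 (median 437) in tumors, against 342, 209.6, 369, 370.0 and 354 in small hyperplasias, adjusted p = 0.00179). In the same whole tissue the adipocyte signal given above was lower in tumors, and Krt14 (1.10) and Krt5 (1.11) were higher. The part of tissue composition in the rises of mitosis and DNA replication genes was not tested.

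Promoters of mitotic genes are known to carry CCAAT boxes, bound by NF-Y, and the element TTTGAA, called the cell cycle genes homology region, which represses them outside of division. Both were searched on either strand in the 300 bases around the transcription start that RefSeq (GRCm38.p6) gives. Promoters were found for 18 of the 21 mitosis genes that rose, 19 in all. CCAAT was present in 17 of these 19 (89.5%), against 37.7% of the promoters of all genes that rose and 37.4% of all 32851 promoters. TTTGAA was present in 14 of 19 (73.7%), against 14.2% for all genes that rose and 17.9% for all promoters. These are descriptions of letters in a window, not of binding. The promoters of Cdc20, Cenpe and Birc5, mitosis genes described above, are shown, with CCAAT and TTTGAA on either strand in capitals. That of Cdc20 (chr4:118437294-118437593, minus strand) holds CCAAT 2 times and TTTGAA 1 time, that of Cenpe (chr3:135212313-135212612, plus strand) holds CCAAT 1 time only, and that of Birc5 (chr11:117848987-117849286, plus strand) holds neither.
Cdc20: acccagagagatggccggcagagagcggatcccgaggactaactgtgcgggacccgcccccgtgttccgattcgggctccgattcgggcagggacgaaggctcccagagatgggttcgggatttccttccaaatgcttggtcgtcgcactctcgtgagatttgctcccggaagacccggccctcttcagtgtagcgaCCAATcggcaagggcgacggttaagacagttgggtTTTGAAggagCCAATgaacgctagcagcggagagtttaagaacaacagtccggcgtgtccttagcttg
Cenpe: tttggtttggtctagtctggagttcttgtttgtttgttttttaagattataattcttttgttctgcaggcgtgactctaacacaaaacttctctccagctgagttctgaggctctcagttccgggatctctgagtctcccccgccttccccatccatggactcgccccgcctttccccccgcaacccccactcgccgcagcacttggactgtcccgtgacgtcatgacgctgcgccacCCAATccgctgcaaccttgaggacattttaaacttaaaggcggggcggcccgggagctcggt
Birc5: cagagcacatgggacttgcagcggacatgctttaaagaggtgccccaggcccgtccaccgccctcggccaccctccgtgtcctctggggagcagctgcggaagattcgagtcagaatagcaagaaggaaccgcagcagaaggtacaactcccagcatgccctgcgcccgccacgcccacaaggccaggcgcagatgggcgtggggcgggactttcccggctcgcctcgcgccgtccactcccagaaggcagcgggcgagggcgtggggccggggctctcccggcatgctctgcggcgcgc

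DNA replication genes rose in 13 of 22 tested members and fell in none at the threshold (median 0.43, and 0.29 without small hyperplasia 2). Rrm2, the regulated subunit of ribonucleotide reductase, ranged 430.05 to 981 (median 668) in tumors, against 205, 109, 231, 229 and 172 in small hyperplasias (log2 difference 1.80 ± 0.16, adjusted p = 1.8e-09), and stood well above the rest of the list. The helicase subunit Mcm5 (0.87), the flap nuclease Fen1 (0.80) and the licensing factor Cdt1 (0.79) followed. In 11 promoters of 10 of these genes CCAAT was present in 6 (54.5%) and TTTGAA in 1 (9.09%).

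Inhibitors of the cyclin-dependent kinases changed in both directions. Of 19 tested genes of G1 control 8 rose and 3 fell (median 0.16). Cdkn2a, which encodes p16 and p19Arf, ranged 48.7 to 130.1 (median 92.5) in tumors, against 18.4, 2.72, 7.08, 20.9 and 20.6 in small hyperplasias, all below background, and was at least 2.76-fold higher (log2 difference 1.78 ± 0.19, adjusted p = 3.0e-08). Cdkn1a, which encodes p21, ranged 534 to 1177 (median 1007) in tumors, against 325, 200.2, 255, 351 and 491 in small hyperplasias (log2 difference 1.53 ± 0.18, adjusted p = 1.6e-07). Cyclin E1 (Ccne1) ranged 61.8 to 143 (median 109) in tumors, against 18.7 to 28.2 (median 25.5) in small hyperplasias (at least 3.22-fold, log2 difference 1.47 ± 0.15, adjusted p = 7.1e-09), and Cdkn2b, which encodes p15, rose by 1.12. Cdkn2c, which encodes p18, ranged 101 to 349 (median 123) in tumors, against 608, 659, 723, 885 and 708 in small hyperplasias (log2 difference -2.19 ± 0.19, adjusted p = 6.4e-10). Its mean was 1096, 717, 405 and 154 in control tissue, small hyperplasias, large hyperplasias and tumors, and the summed adipocyte signal had medians of 100502, 53980, 42665 and 6238 in the same groups; its part in this fall was not tested. Cdkn1c, which encodes p57, ranged 9.43 to 68.8 (median 20.9) in tumors, against 93.6, 127, 144, 142 and 187 in small hyperplasias (log2 difference -1.88 ± 0.21, adjusted p = 7.6e-08). In none of these genes with values per group did tumors and small hyperplasias overlap. Rb1 fell by 0.59, and Cdk4 rose by 0.40, in 1 of its 3 probe sets. Cyclin D1 (Ccnd1), a target of both β-catenin and ErbB signals, ranged 538 to 2140.2 (median 1057) in tumors, against 1031, 1032, 1192, 951 and 1202 in small hyperplasias, and did not pass the test (log2 difference -0.08 ± 0.21, adjusted p = 0.769); its tumors lay on both sides of the small hyperplasias.

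**Figure D4:**
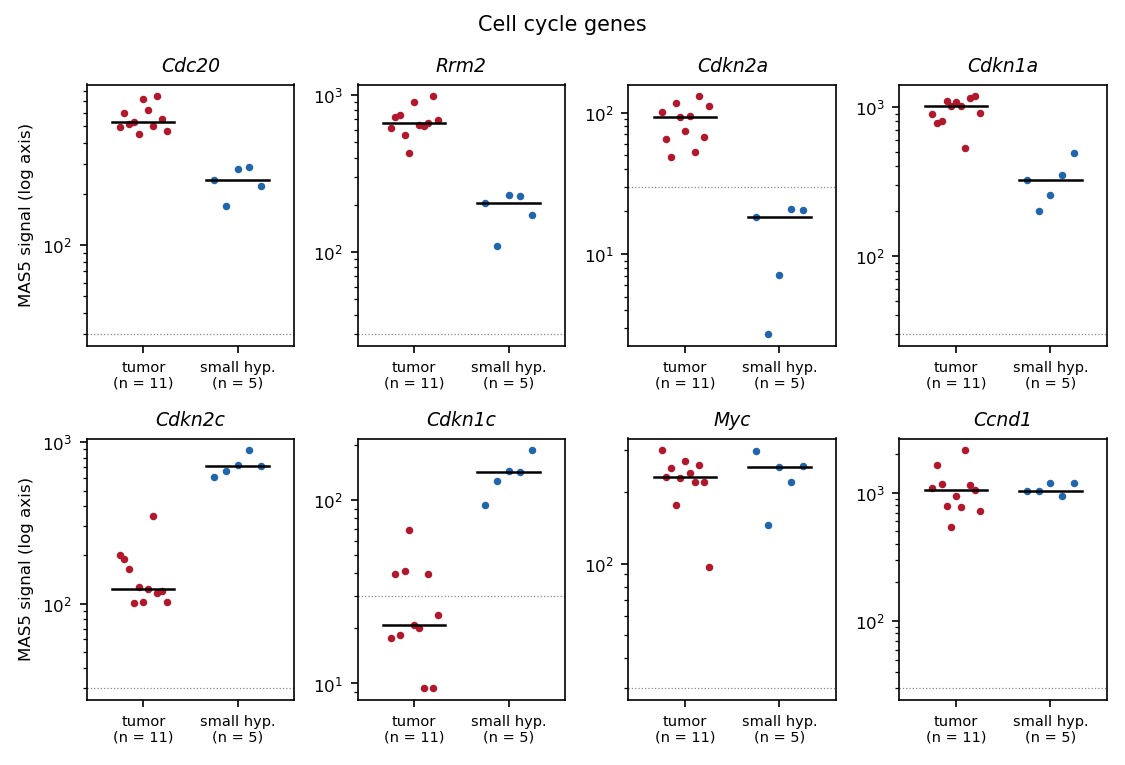
MAS5 signals (log axis) of 8 cell cycle genes in 11 tumors (red, left) and 5 small hyperplasias (blue, right); each point is 1 array, bars are medians, and the dotted line is the background level of 30. Cdc20, Rrm2, Cdkn2a and Cdkn1a are higher and Cdkn2c and Cdkn1c lower in tumors without overlap, and Myc and Ccnd1 overlap.

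Myc itself did not pass the test. It ranged 97 to 298 (median 229.9) in tumors, against 297, 145, 254, 221 and 258 in small hyperplasias (log2 difference -0.06 ± 0.17, adjusted p = 0.787), and 10 of the 11 tumors lay within the range of the small hyperplasias or just above it. Of the 13 genes of its network 3 rose and 5 fell (median -0.07). Mxd1, a partner of Max that opposes Myc and rises in differentiating epidermis, ranged 153 to 345 (median 253) in tumors, against 73.9, 83.8, 95.1, 101 and 113 in small hyperplasias (log2 difference 1.21 ± 0.18, adjusted p = 3.8e-06). Max (log2 difference 0.97 ± 0.32, adjusted p = 0.0138) and Mlx (log2 difference 0.27 ± 0.11, adjusted p = 0.0387) were called higher but not without small hyperplasia 2 (adjusted p = 0.0697 and 0.149) or 3 (adjusted p = 0.0812 and 0.131), and Mlx also not without tumor 1, 6, 9, 10 or 11 or small hyperplasia 1 (adjusted p = 0.0518 to 0.0754), nor without tumors 1 to 3 (adjusted p = 0.0586). Mlxipl, the glucose-sensing factor ChREBP of fat and liver, ranged 0.382 to 16.4 (median 4.74) in tumors, all below background, against 194, 139.9, 166, 234 and 192 in small hyperplasias, and was at least 6.09-fold lower (log2 difference -3.19 ± 0.18, adjusted p = 2.7e-13). The adipocyte signal given above moved with it, and its part was not tested. Genes of ribosome biogenesis, a known target program of Myc, rose in 9 of 20 tested members and fell in 1 (median 0.23). Nhp2 rose most (log2 difference 0.90 ± 0.13, adjusted p = 3.2e-06), followed by Rrs1 (0.54), Gar1 (0.47) and the nucleolar methylase Fbl (0.45), which had an adjusted p of 0.0518 without small hyperplasia 2, while Rrp9 fell (log2 difference -0.33 ± 0.10, adjusted p = 0.0101). The E-box CACGTG, which Myc and Max bind, was present in 1 of 7 promoters of the called genes (14.3%), a set that includes those that rose and Rrp9, against 10.2% for all genes that rose and 7.15% for all promoters.

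Genes of glycolysis and the hypoxia response rose in 15 of 20 tested members and fell in 2 (median 0.73). Egln3, a prolyl hydroxylase induced by hypoxia, ranged 572 to 1897 (median 1403) in tumors, against 87.7, 214, 229, 148 and 248 in small hyperplasias (log2 difference 2.69 ± 0.27, adjusted p = 7.6e-09). The glucose transporter Slc2a1 ranged 759 to 2141 (median 1406) in tumors, against 293, 309, 309, 289.7 and 226 in small hyperplasias (log2 difference 2.15 ± 0.20, adjusted p = 1.7e-09). Car9, the carbonic anhydrase of hypoxic cells, and the lactate exporter Slc16a3 lay below background in each small hyperplasia and were at least 3.49-fold and 2.9-fold higher in tumors. In all 4 genes the groups did not overlap. Aldoa (-0.51) and Bnip3 (-1.01) fell, and Vegfa did not pass the test (log2 difference 0.13 ± 0.19, adjusted p = 0.595). Genes of cholesterol synthesis rose in 8 of 14 tested members and fell in 1 (median 0.50). Cyp51 (288 to 526 (median 425) in tumors, against 143, 81.8, 167, 138 and 123 in small hyperplasias, log2 difference 1.58 ± 0.14, adjusted p = 7.1e-10), Sqle (1.52) and Idi1 (1.30) are enzymes of the path and rose without overlap, and Insig1, which retains the regulator of the path in the endoplasmic reticulum and is abundant in fat, fell (log2 difference -1.70 ± 0.15, adjusted p = 1.4e-09), with the part of the adipocyte signal not tested.

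The extracellular matrix changed gene by gene. Of 18 tested proteases and inhibitors 8 rose and 6 fell (median 0.37). Mmp13, a collagenase, ranged 366 to 4174 (median 2946) in tumors, against 167, 33.8, 127, 161 and 99 in small hyperplasias (log2 difference 4.00 ± 0.43, adjusted p = 2.7e-08). Mmp10, a stromelysin of migrating keratinocytes, ranged 50.7 to 870.4 (median 229.6) in tumors, against 14.3, 8.48, 11.9, 3.19 and 10.5 in small hyperplasias, all below background, at least 8.21-fold higher (log2 difference 3.41 ± 0.47, adjusted p = 1.2e-06). Both were apart between the groups, as were the gelatinase Mmp9 (2.16) and the membrane protease Mmp14 (1.23). Timp4, an inhibitor that is abundant in fat, ranged 0.729 to 63.2 (median 5.67) in tumors, against 491, 897, 335, 316 and 214 in small hyperplasias (log2 difference -3.97 ± 0.34, adjusted p = 5.5e-10); the adipocyte signal moved with it, and its part was not tested. Of 21 collagens 4 rose and 7 fell (median -0.05, and 0.27 without tumors 1 to 3). Col12a1, which decorates fibrils, ranged 465 to 2504 (median 986) in tumors, against 206, 87.7, 119, 144 and 57.4 in small hyperplasias (log2 difference 2.90 ± 0.33, adjusted p = 6.3e-08), and Col8a1, a short-chain collagen, ranged 581 to 1814 (median 1104) in tumors, against 211, 133, 119, 225 and 216 in small hyperplasias (log2 difference 2.54 ± 0.25, adjusted p = 8.8e-09). Col7a1, the anchoring fibril of squamous epithelium, rose by 1.27. The basement membrane chain Col4a6 fell most (log2 difference -1.43 ± 0.27, adjusted p = 0.00011), with Col4a5 (-0.85) and Col4a1 (-0.69), whereas the fibrillar chains Col1a1 (log2 difference -0.10 ± 0.29, adjusted p = 0.791) and Col1a2 (-0.05) did not pass the test. Of 16 genes used as marks of epithelial to mesenchymal transition 4 rose and 4 fell (median -0.22). Tenascin C (Tnc) ranged 758 to 4027 (median 2476) in tumors, against 333, 150.1, 325, 355 and 319 in small hyperplasias (log2 difference 2.65 ± 0.34, adjusted p = 4.3e-07), and the hyaluronan synthase Has2 (1.21), the hyaluronan receptor Cd44 (0.94) and the epithelial cadherin Cdh1 (0.59) rose. Of the repressors of Cdh1, those that fell were Zeb2 (102 to 339 (median 174) in tumors, against 352, 810.4, 593, 371 and 484 in small hyperplasias, log2 difference -1.44 ± 0.19, adjusted p = 1.0e-06), Zeb1 (-0.80) and Twist1 (-0.76), whereas Snai1 (0.18, adjusted p = 0.27), Snai2 (0.36, adjusted p = 0.117) and Twist2 (-0.54, adjusted p = 0.171) did not pass the test. Of 10 genes of Bmp signaling and the Id family 3 rose and 2 fell (median 0.10). The Bmp antagonist Grem1 ranged 12 to 162 (median 61.3) in tumors, against 11.5, 8.84, 7.89, 5.95 and 1.93 in small hyperplasias, all below background, at least 1.69-fold higher (log2 difference 1.64 ± 0.36, adjusted p = 0.0005), and Bmp6 was at least 2.01-fold lower (log2 difference -1.42 ± 0.13, adjusted p = 2.2e-09). Smad7 rose by 0.51, and Bmp4 was called lower (-0.75) but not without small hyperplasia 1 (adjusted p = 0.0534) or 5 (adjusted p = 0.0675).

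Chemokine genes moved in both directions, and neutrophil genes rose. Of 20 tested chemokines 10 rose and 4 fell (median 0.70). Cxcl5 ranged 377 to 1842 (median 522) in tumors, against 52.3, 58.2, 111, 82.4 and 54.2 in small hyperplasias (log2 difference 2.99 ± 0.37, adjusted p = 2.7e-07), and Cxcl1 ranged 238 to 1905 (median 494) in tumors, against 95.4, 94.9, 86.4, 63 and 82.6 in small hyperplasias (log2 difference 2.47 ± 0.32, adjusted p = 6.4e-07). Neither overlapped, and Cxcl2, the third ligand of the receptor Cxcr2, rose by 2.09 with an overlap. Those that fell include the stromal chemokine Cxcl12 (-1.29), the eosinophil attractant Ccl11 (-1.30) and Cxcl15 (-2.76, which also draws neutrophils in mouse, at least 4.6-fold lower). Ccl6 was called lower (-0.59), with an adjusted p of 0.0529 to 0.102 without small hyperplasia 1, 4 or 5 and of 0.0521 to 0.0550 without tumor 1, 7 or 10. Of 7 tested neutrophil genes 6 rose (median 1.39), led by S100a9 (3177 to 8016 (median 5544) in tumors, against 416, 1196, 1255, 729 and 579 in small hyperplasias, log2 difference 2.77 ± 0.36, adjusted p = 5.6e-07) and S100a8 (2.34), which keratinocytes also express. The granule genes Ngp (1.87) and Camp (1.39, at least 1.46-fold) and the receptors Csf3r (1.13) and Cxcr2 (1.00) rose. The remaining tested member, Ltf, did not pass the test (-0.41), and the granule genes Mpo and Elane were below the detection filter. The summed signal of the neutrophil list ran from 8359 to 16822 in tumors, against 2318 to 4899 in small hyperplasias. S100a9 alone, which is in this sum, ran from 3177 to 8016 in tumors, against 416 to 1255 in small hyperplasias. The part of the summed signal in the chemokine result was not tested.

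Genes induced by interferon rose in 11 of 12 tested members and fell in none at the threshold (median 0.87), but in 7 without small hyperplasia 3. Oas1a, a sensor of double-stranded RNA, ranged 414 to 1323 (median 745) in tumors, against 184, 142, 145, 230.1 and 226 in small hyperplasias (log2 difference 1.91 ± 0.24, adjusted p = 3.0e-07), and Oas2 (1.55), Oasl2 (1.55) and Usp18 (1.22) followed. Macrophage genes were divided: of 15 tested 4 rose and 2 fell (median -0.05), and 2 rose without small hyperplasia 2. Arg1, the arginase of alternatively activated macrophages and also of epidermis, ranged 551 to 3791 (median 1867) in tumors, against 284, 321, 421, 350.2 and 428 in small hyperplasias (log2 difference 2.17 ± 0.42, adjusted p = 0.00012), whereas the scavenger receptor Cd163 (log2 difference -1.80 ± 0.34, adjusted p = 8.0e-05) and the mannose receptor Mrc1 (-0.80) fell. The pan-macrophage genes Adgre1 (-0.21), Csf1r (-0.22) and Cd68 (-0.05) did not pass the test. Of 6 tested genes of B and plasma cells 2 fell, Ighm (log2 difference -1.99 ± 0.54, adjusted p = 0.0031) and Cd79b (-0.74), and 4 fell without small hyperplasia 1. Of 8 T cell genes 1 rose, Cd8b1 (0.80), and 1 fell, Cd2 (-0.47). Without any one of tumors 2, 4, 6, 8, 10 and 11, Cd8b1 did not reach the detection filter, and the count that rose was 0. That count was 2 without tumor 1 or 9, and the count that fell was 0 without small hyperplasia 4 or 5.

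The deepest falls of the comparison were in fat genes. All 19 tested adipocyte genes fell, without overlap in any of them, with a median of -3.62. Adipoq, the hormone adiponectin, ranged 5.64 to 1004 (median 89.6) in tumors, against 5809, 5445, 5461, 6451 and 7085 in small hyperplasias (log2 difference -5.39 ± 0.61, adjusted p = 6.3e-08). Pparg, the master factor of fat cells, ranged 1.36 to 42.4 (median 13.5) in tumors, against 452 to 630.3 (median 497) in small hyperplasias (log2 difference -4.02 ± 0.21, adjusted p = 9.7e-14). The lipid droplet genes Cidec (-5.63) and Plin4 (-5.59), the hormone resistin (Retn, -5.54) and Pck1 (-5.61), of glyceride synthesis in fat, fell further. Ucp1, the uncoupling protein of brown fat, had the largest fall of all genes and ranged 0.274 to 125 (median 2.1) in tumors, against 749, 1075, 2419, 1917 and 2514 in small hyperplasias (log2 difference -6.11 ± 0.75, adjusted p = 2.3e-07), and Cox8b, a mitochondrial gene of brown fat and muscle, fell likewise (-5.64). Ces1d (-5.57), Cdo1 (-5.27) and the imprinted gene Nnat (-5.58) complete the 10 largest falls. In bulk tissue fewer cells of a type and less RNA per cell cannot be told apart.

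Other stromal lists fell less. Of 12 tested fibroblast genes 9 fell and 1 rose (median -0.96): dermatopontin (Dpt) ranged 72.5 to 671 (median 322) in tumors, against 2151, 2939.7, 2464, 2189 and 2413 in small hyperplasias (log2 difference -3.07 ± 0.36, adjusted p = 1.4e-07), Gsn (-1.52), Lum (-1.37) and Dcn (-1.25) fell, and Pdgfrb, also of pericytes, rose (0.74). Of 19 endothelial genes 13 fell and none rose at the threshold (median -0.44), and leaving out 1 array gave 10 to 13 that fell. Tek, the angiopoietin receptor, ranged 24.3 to 64.5 (median 39.3) in tumors, against 185, 204, 156, 148 and 183 in small hyperplasias (log2 difference -1.74 ± 0.13, adjusted p = 4.2e-11), with Sox17 (-1.503), Ramp2 (-1.34) and Robo4 (-0.82), while Pecam1 (log2 difference -0.29 ± 0.17, adjusted p = 0.162) and Cdh5 (-0.24) did not pass the test. Skeletal muscle genes were high in part of the tumors: of 7 tested genes 4 rose (median 1.46), each with an overlap, and 5 more were below the detection filter. Relative to the small hyperplasias, the mean log2 level of these genes was 1.57 to 3.85 in tumors 3, 4, 6, 7, 8 and 11 and -0.20 to 0.08 in tumors 1, 2, 5, 9 and 10, and its part in other results was not tested. Myh1 (6.16 to 594 (median 122) in tumors, against 7.28, 68, 7.61, 11.6 and 10.4 in small hyperplasias, log2 difference 1.76 ± 0.72, adjusted p = 0.041) lost its call without any one of tumors 3, 4, 6, 7, 8 and 11 or of small hyperplasias 1, 3, 4 and 5 (adjusted p = 0.0538 to 0.0857).

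**Figure D5:**
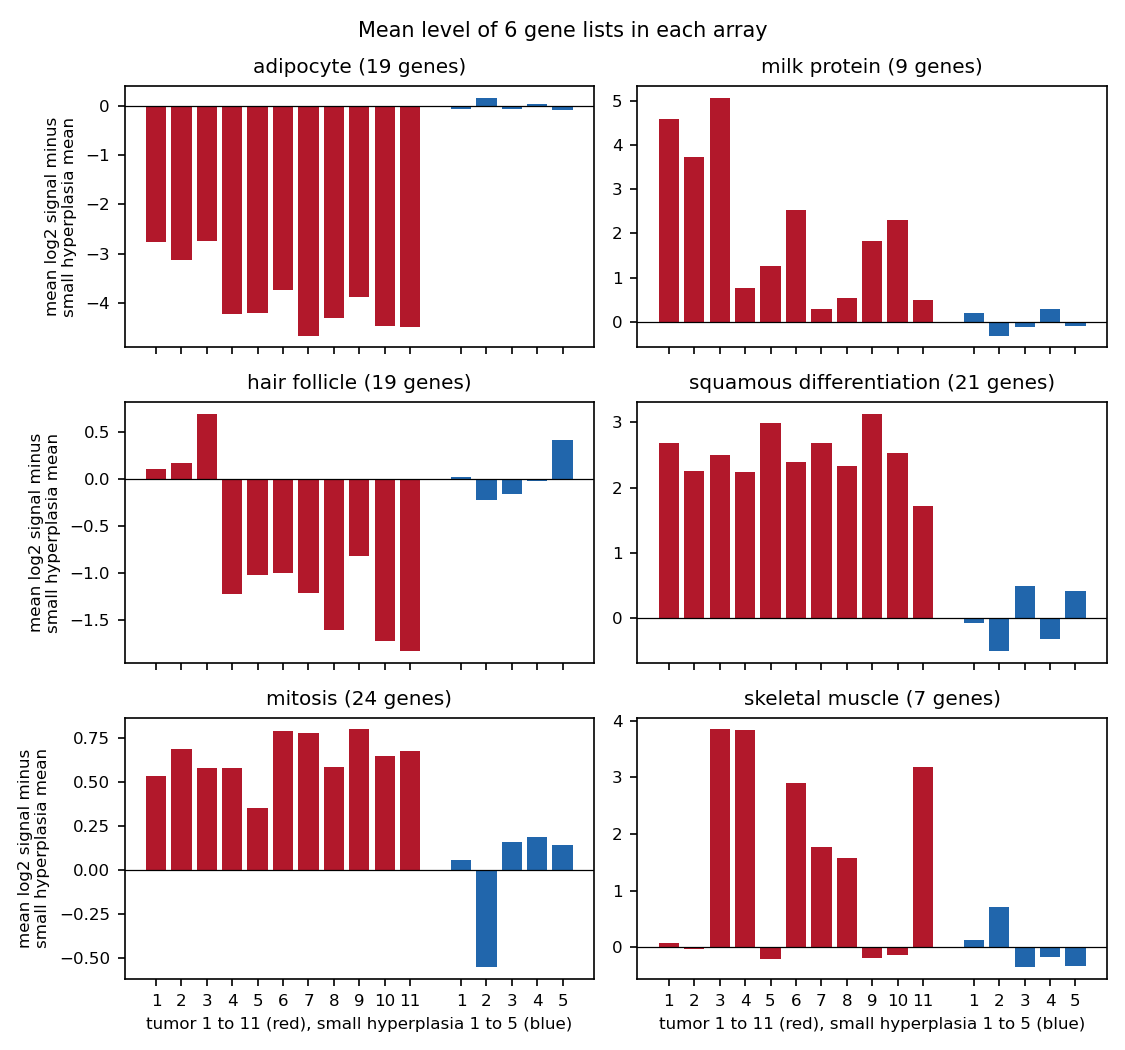
Mean log2(signal + 16) of 6 gene lists in each array, relative to the mean of the small hyperplasias, for tumors 1 to 11 (red, left) and small hyperplasias 1 to 5 (blue, right). Squamous and mitosis genes are above 0 and adipocyte genes below 0 in all 11 tumors. Among the tumors, hair follicle genes are below 0 in tumors 4 to 11 only, and skeletal muscle genes are high in tumors 3, 4, 6, 7, 8 and 11.

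Imprinted genes of growth control and an X-linked homeobox gene moved far. Of 8 tested imprinted genes 1 rose and 5 fell (median -0.66). Igf2, a fetal growth factor, ranged 1040.2 to 4869.6 (median 3869) in tumors, against 373, 78.9, 1157, 382 and 231 in small hyperplasias (log2 difference 3.32 ± 0.36, adjusted p = 4.1e-08), and only tumor 8 (1040) lay below the highest small hyperplasia, which was number 3. Peg3 ranged 24.4 to 104 (median 57.9) in tumors, against 296, 1484, 422, 297 and 344 in small hyperplasias (log2 difference -2.74 ± 0.36, adjusted p = 6.8e-07), and Ndn fell by 1.82, both without overlap. Rhox5, an X-linked homeobox gene of testis and ovary, ranged 256 to 2186 (median 917) in tumors, against 20.3, 4.95, 19.9, 13.8 and 7.43 in small hyperplasias, all below background, and was at least 28.4-fold higher (log2 difference 4.93 ± 0.35, adjusted p = 2.6e-11). The RIKEN gene 2610528A11Rik ranged 204 to 1522 (median 469) in tumors, against 7.36, 19.1, 13.6, 10.7 and 3.81 in small hyperplasias, at least 16.5-fold higher (log2 difference 4.28 ± 0.32, adjusted p = 6.3e-11). Neither gene reached the background level in a small hyperplasia, and both exceeded it in each tumor.

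In a list of 20 tested genes, chosen because PCR or staining of such lesions covered them, 7 rose, 4 fell and 9 did not pass the test, with a median of 0.01. The list was drawn up on these lesions and is not independent evidence of a direction. Brca1 ranged 47 to 72.4 (median 56) in tumors, against 44.7, 27.5, 41.8, 46.2 and 28 in small hyperplasias (log2 difference 0.50 ± 0.12, adjusted p = 0.00149). The basal cadherin Cdh3 (log2 difference 0.15 ± 0.18, adjusted p = 0.522), the ephrin Efnb2 (log2 difference 0.27 ± 0.19, adjusted p = 0.235) and versican (Vcan, log2 difference -0.03 ± 0.20, adjusted p = 0.895) did not pass. Trp73 was below the detection filter.

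Set beside the other tissue groups of the fit, in the order control tissue, small hyperplasia, large hyperplasia and tumor, the genes of the comparison differed in where they changed. Mean signals of Krt1 were 2.88, 204, 161 and 3377, with both hyperplasias above control tissue and the tumors above both. The mean log2 level of the squamous list, relative to the small hyperplasias, had medians of -3.02 in control tissue, -0.074 in small hyperplasias, 0.41 in large hyperplasias and 2.50 in tumors. Mean signals of Epgn were 5.07, 23, 24.5 and 665, and only the tumor mean exceeded the background level. Lgr5 averaged 163, 364, 589.6 and 93.6, highest in large hyperplasias and lowest in tumors, and Krt71 averaged 14.6, 635, 1439 and 251. Cdc20 averaged 42.2, 241, 287 and 563 and Adipoq averaged 12038, 6050.1, 4967 and 265. Cdkn2a averaged 12.6, 14, 15.4 and 86.7 and Igf2 96.3, 444, 92.8 and 3543, each highest in tumors. These means are given as a description, and other contrasts were not tested here.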

How the data were processed

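RNA of 25 mammary tissue samples was labelled with an Affymetrix one-cycle kit and hybridised to mouse genome arrays, 1 array per sample. The deposited values are linear intensities from MAS5, run by the authors in Expression Console (version not given in the sources used here), scaling each array to a target of 100 with the lowest and highest 2% of signals left out; the trimmed means were checked to lie near it. Such scaling makes each difference relative to the bulk of the signal. Of 45101 probe sets, 64 controls were left out. Symbols came from the platform annotation: 34945 probe sets have 1 symbol, 932 several and 9160 none, and 204 of the first kind had no match by gene ID. Where several probe sets carry 1 symbol, the one with the highest mean log2 signal stands for the gene. The other probe sets of a gene did not always share its call. Among others, Mcm5, Dcn, Ccl6, Foxn1 and Myh1 were each called in 1 of 2 tested probe sets.

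The 25 tissue arrays were fitted in 1 linear model of log2(signal + 16), using limma 3.58.1 under R 4.3.3 with moderated variances that follow a trend in the mean. Probe sets whose higher group median was at least 30 were tested, and p-values were adjusted by Benjamini and Hochberg over all 23531 of them and called at an adjusted p under 0.05. The number of arrays limits the precision. The procedure was tested on simulated data. Lists (34, with 564 genes, of which 534 have a probe set) are described by counts and medians. The comparison and the lists were chosen with earlier results of these data known. Genes were named as the 10 largest rises and the 10 largest falls that were called, free of overlap and at 100 or more in the higher group median, up to 4 called members per list by size, up to 5 called members against the direction of a list, and the genes the study measured; any other list member was picked with its values known. Some list genes are not analysed here. The labels number samples within groups. Deviations of same-numbered tumors and small hyperplasias correlated at -0.0765 to 0.103 over 5 numbers, and same numbers were therefore not treated as pairs. No 2 arrays were alike (highest Spearman correlation 0.966). Promoters are those of RefSeq (GRCm38.p6); no other coordinates are given, since the annotation of the array names no build here.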

Additional observations from a re-analysis of the deposited data

Results flagged for a closer look

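In 15 of 219 groups of 5 small hyperplasias that were examined, 1 sample lay far from the rest by Dixon's criterion at the 95% level (chance flags about 5% of such groups). Groups of 11 tumors were not examined. In 6 genes the sample was small hyperplasia 2: C1qa (989, others 1411 to 1489), Mki67 (209.6, others 342 to 370.0), Tnc (150.1, others 319 to 355), Peg3 (1484, others 296 to 422), Myh1 (68.0, others 7.28 to 11.6) and Tnni2 (33.3, others 13.01 to 17.4), and the same sample stood apart in the mean of the endothelial (0.36), DNA replication (-0.29), mitosis (-0.55) and collagen (-0.33) lists. Small hyperplasia 3 was high in Krt1 (567, others 92.1 to 141) and Stfa2l1 (77.2, others 29.3 to 38.9). Small hyperplasia 1 was high in Cd163 (728, others 277 to 312), small hyperplasia 4 in Csn1s2a (24.3, others 0.31 to 1.595), and small hyperplasia 5 was low in Slc2a1 (225.7, others 289.7 to 309).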

How the results depend on the processing

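Counts of calls over all probe sets and all genes held within 1.5 times of the reported ones under these alternatives: quantile normalization, omission of the offset, of the filter or of the trend, filtering on mean signals instead of medians, a floor at 30, a fit of the 16 arrays only, the methods' t-test, the mean of a gene's probe sets, a replicate block, each array left out, and the removal of tumors 1, 2 and 3 together, which was chosen after seeing the data. Only the further alternative, the methods' rule of a ratio over 2, moved them by more, to 1590 probe sets higher and 2351 lower, or 919 and 1280 genes. Leaving out 1 array gave 5295 to 5816 probe sets higher and 6487 to 7041 lower, and quantile normalization moved the share of calls that are higher to 51.2%, from 45.1%. Same-numbered samples were not treated as pairs. A replicate block, in which only tumors 1 to 5 share a number with a small hyperplasia, gave 4826 higher and 5361 lower. The call of a named gene was lost for 22 genes with the block, for 43 with the ratio rule, for 9 with the t-test after Benjamini-Hochberg adjustment and for 2 without tumors 1 to 3, with the direction kept.

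Medians of lists moved as follows. Without the offset they were -4.84 for adipocyte, 2.35 for neutrophil and -1.54 for hair follicle genes. Without the filter they were -0.29 for smooth muscle, 1.11 for milk protein and 0.30 for ErbB genes, and with the filter on the mean signal 1.11 for milk protein. The replicate block gave -0.25 for smooth muscle and 4.03 for milk protein, with 2 hair follicle and 5 Wnt receptor genes lower. Without tumors 1 to 3 they were 0.12 for smooth muscle, 0.78 for milk protein and 0.27 for collagen. The ratio rule gave -4.48 for adipocyte, 2.41 for neutrophil and -0.31 for smooth muscle, and the mean of probe sets gave -0.59 for fibroblast. Leaving out 1 array gave -0.19 to -0.059 for the Myc network and 0.29 to 0.50 for DNA replication, and -0.85 to -0.48 for hormone-sensing genes. The medians of smooth muscle, collagen, macrophage and PCR or staining genes lay near 0 and changed sign without single arrays. Dst changed sign with the mean of its probe sets (0.0049, adjusted p = 0.98). Apart from the construction of each alternative, the cause was not tested. Signals below 30 are near background, and no order among them is read.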
